A study of Mus musculus with 24 samples.

Results

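The loss of Trp53 was examined in mouse forelimbs that kept both alleles of Rps6 active, in 12 of the 24 libraries of the study. These are the libraries of Trp53 null and Trp53 WT limbs without Cre, 3 against 3 in sequenced RNA and 3 against 3 in ribosome-protected fragments (RPF, or footprints), chosen by their labels and not by any measured value. Trp53 encodes p53, a transcription factor that is held at a low level in unstressed cells by degradation and that raises the transcription of its target genes when the cell is stressed. Impaired ribosome assembly is one such stress, since free ribosomal proteins bind the ligase that degrades p53. Comparing Trp53 null with Trp53 WT limbs asks which transcripts differ with Trp53 genotype while Rps6 is intact, before any ribosomal protein is lost. Whether such transcripts lie near Trp53 in the genome, and so differ with the allele rather than through p53, was not tested.

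Forelimbs were taken at stage E10.5, when the limb bud is largely proliferating mesenchyme under an ectodermal cover. The Trp53 WT group carried Rps6lox/+;Trp53+/+ and the Trp53 null group Rps6lox/+;Trp53-/-, so both held 1 floxed copy of Rps6 that stayed unrecombined for want of Cre. Beside them stand the Rps6 het groups, Prx1Cre;Rps6lox/+;Trp53+/+ and Prx1Cre;Rps6lox/+;Trp53-/-, in which Cre removes a copy of Rps6, the gene of a small-subunit ribosomal protein. Prx1Cre is active in limb bud mesenchyme, so other cells of those limbs keep both copies, whereas the Trp53-/- genotype holds in every cell. Every Rps6 het limb carried Cre and no Rps6 WT limb did, so effects of Cre and of Rps6 cannot be told apart. Each group had 3 pools, each made from the limbs of a pair of embryos of the same genotype, and the RNA and RPF libraries of a pool came from the same lysates.

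Total counts in RNA were 19847588 to 26317954 in Trp53 WT and 14291854 to 21748363 in Trp53 null, so the Trp53 null RNA libraries were on the whole shallower. In RPF they were 8939697 to 16835045 in Trp53 WT and 11671375 to 12333309 in Trp53 null. The smallest level taken as seen, 3 counts, equals 0.114 to 0.21 CPM (counts scaled by library total) in RNA and 0.178 to 0.336 CPM for footprints, a limit that covers counting error only. The first principal component of the 6 RNA libraries, with 31.6% of their variance, put the Trp53 WT libraries at 10.8 to 15.6 and the Trp53 null libraries at -19.4 to -7.4. In RPF the first component did not part the groups, as the Trp53 WT libraries ran from -5.0 to 19.0 and the Trp53 null libraries from -7.5 to -4.0. The deposited table lists 21960 transcripts by Ensembl ID alone, and 0 of these could be matched to a gene name here. Trp53, Rps6, limb markers and known p53 target genes could therefore not be identified among the rows, and 4 transcripts are given by ID. Whether any called transcript, including these 4, is that of Trp53 itself was not tested.

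Few transcripts passed the adjusted threshold between Trp53 null and Trp53 WT limbs with Rps6 intact, in the fit over 4 genotypes. In RNA, 17 of 14411 transcripts tested (0.118%) had an adjusted p-value under 0.05 in edgeR's quasi-likelihood test and are said to be called. Of these, 9 (0.0625% of those tested) rose and 8 (0.0555%) fell in Trp53 null. In RPF, 9 of 12147 (0.0741%) were called, of which 6 (0.0494%) rose and 3 (0.0247%) fell. An unadjusted p under 0.05 was found for 2127 transcripts in RNA (14.8%) and for 494 in RPF (4.07%). In bulk tissue, fewer cells of a type and less RNA per cell cannot be told apart.

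The number of RNA calls depended on the libraries and transcripts that entered the fit. With only the 6 Rps6 WT libraries fitted, the test called 251 transcripts, of which 220 were higher and 31 lower without Trp53. With no filter on low counts there were 252, 222 higher and 30 lower. All 252 had also passed the filter and been tested in the fit over 4 genotypes. The sets of 251 and 252 each hold all 17 transcripts called in that fit. The DESeq2 Wald test called 38, 23 higher and 15 lower. Only 6 of the 17 were among these 38, and DESeq2 gave no adjusted p for the other 11. Leaving out a pool of Trp53 null brought the number down, to 8 without replicate 1, 6 without replicate 2 and 8 without replicate 3. In RPF the number was 13 in the 6 libraries alone, 48 without the filter, 8 with DESeq2 and 4 without Trp53 null replicate 3.

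The precision of the comparison is given over all transcripts tested, the called ones included. The median standard error of a log2 fold change was 0.083 in RNA and 0.082 in RPF. The 95% confidence interval of the change lay within 1.5-fold in either direction for 11293 transcripts in RNA (78.4%) and 10283 in RPF (84.7%). It lay wholly beyond 2-fold for 4 transcripts in RNA and 2 in RPF, each of them called in that kind. The median log2 fold change over all transcripts tested was 0.0028 in RNA and 0.00043 in RPF.

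Together 19 transcripts were called in RNA or in RPF. Of these, 7 were called in both, 5 of them higher and 2 lower in Trp53 null in each kind. Another 10 were called in RNA alone and 2 in RPF alone. In each of the 19, the 3 Trp53 null pools did not overlap the 3 Trp53 WT pools in the kind in which it was called, an arrangement that 3236 of all transcripts tested in RNA (22.5%) and 1157 in RPF (9.52%) also showed. The 14 transcripts that could be tested in both kinds all had log2 fold changes of one sign in RNA and RPF. They were chosen by their change in RNA or RPF, and the same-sign share over all transcripts is not given here. RNA and RPF come from the same pools, so the kinds are not independent measurements of different embryos.

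**Figure D1:**
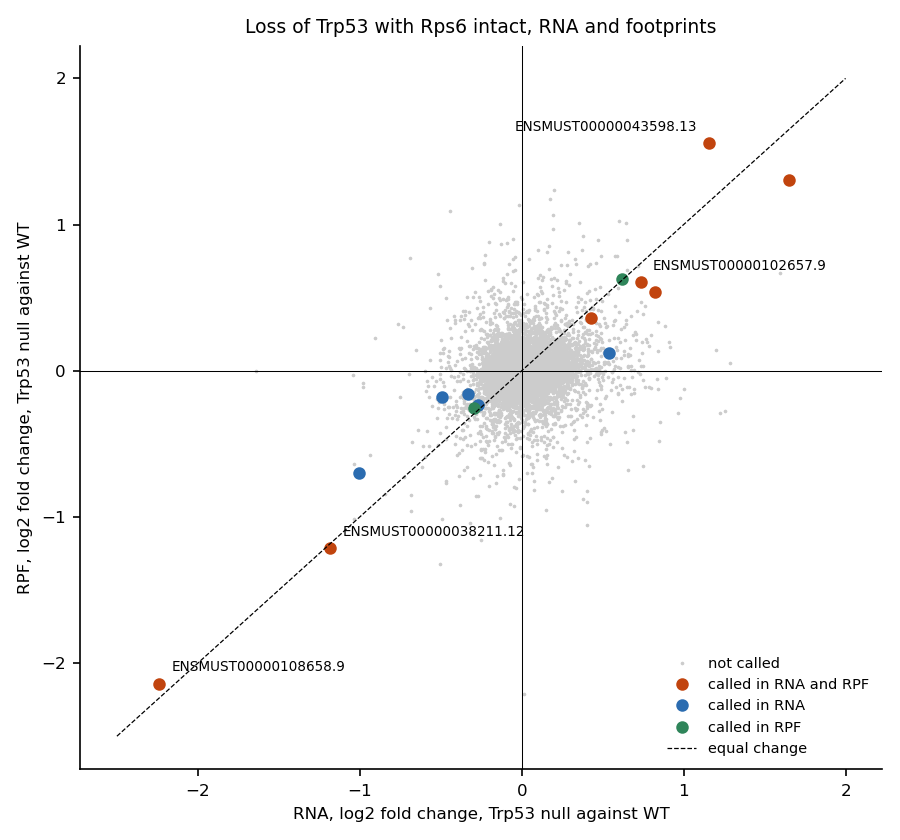
RNA log2 fold change (horizontal axis) against RPF log2 fold change (vertical axis) of Trp53 null over Trp53 WT with Rps6 intact, one point per transcript tested in both kinds, with the dashed line marking equal change. The 7 transcripts called in both kinds (orange), the 5 called in RNA (blue) and the 2 called in RPF (green) lie in the lower left and upper right parts of the plot, and most grey points gather around 0.

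Of the 2 transcripts that fell in both kinds, ENSMUST00000108658.9 fell further. Its RNA was at 112, 99.5 and 101 CPM in the Trp53 WT pools and at 25.5, 20.4 and 19.7 CPM in the Trp53 null pools. Its footprints were at 499, 498 and 475 CPM in Trp53 WT and at 109, 111 and 114 CPM in Trp53 null. Every Trp53 null library was thus well below every Trp53 WT library, and none reached 0. The change was -2.24 ± 0.127 (SE, n = 3 against 3) on the log2 scale in RNA, 4.72-fold lower, with an edgeR adjusted p of 1.44e-07. In RPF it was -2.14 ± 0.0392, 4.41-fold lower, with an edgeR adjusted p of 5.3e-24. The fall was therefore of similar size in both kinds. Whether ENSMUST00000108658.9 is the transcript of Trp53 itself was not tested, so its fall need not be an effect of p53 on another gene.

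ENSMUST00000038211.12 also fell in both kinds. Its RNA was at 25.4, 24.7 and 26.4 CPM in Trp53 WT and at 10.1, 13.2 and 10.6 CPM in Trp53 null. Its footprints went from 18.9, 22.3 and 21.03 CPM to 6.99, 11.4 and 8.33 CPM. The second Trp53 null pool was the highest of its group in both kinds but still lay far under the lowest Trp53 WT pool. The change was -1.19 ± 0.146 in RNA (edgeR adjusted p 0.00157) and -1.22 ± 0.153 in RPF (edgeR adjusted p 6.92e-05), 2.27-fold and 2.32-fold lower.

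Among the transcripts that rose in both kinds, ENSMUST00000043598.13 had the smallest p-value in RNA and in RPF. Its RNA stood at 4.03, 4.10 and 3.69 CPM in Trp53 WT, from 82 to 99 counts a library, and at 8.84, 9.46 and 8.06 CPM in Trp53 null. Its footprints were few, with 23 to 62 counts a library in Trp53 WT and 105 to 124 in Trp53 null, or 3.25, 2.55 and 3.59 CPM against 9.96, 9.61 and 8.93 CPM. All Trp53 null pools were above all Trp53 WT pools. The rise was 1.16 ± 0.143 in RNA (edgeR adjusted p 0.00157) and 1.56 ± 0.157 in RPF (edgeR adjusted p 1.8e-06), 2.23-fold and 2.94-fold.

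ENSMUST00000102657.9 rose less and from a level with more counts. In RNA it was at 17.5, 18.3 and 23.98 CPM in Trp53 WT and at 32.5, 35.6 and 32.1 CPM in Trp53 null. Its footprints stood at 24.9, 25.7 and 30.8 CPM in Trp53 WT and at 41.3, 42.9 and 41.1 CPM without Trp53. The third Trp53 WT pool was the highest of its group in both kinds without reaching the Trp53 null pools. The rise was 0.73 ± 0.0978 in RNA (edgeR adjusted p 0.00346) and 0.61 ± 0.0705 in RPF (edgeR adjusted p 1.98e-05).

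**Figure D2:**
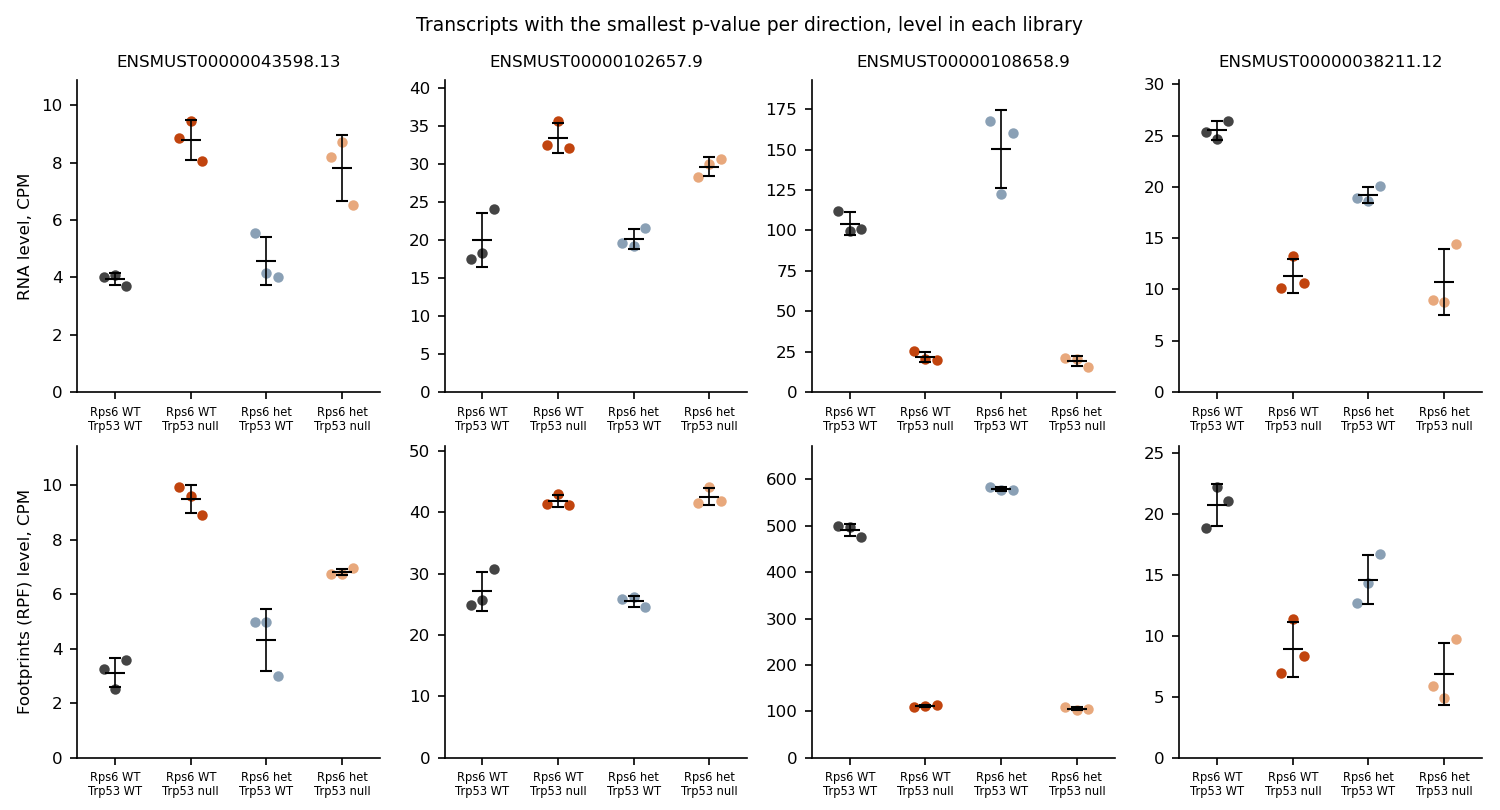
Level in CPM (vertical axis, from 0) of the 4 transcripts in RNA (top row) and RPF (bottom row), one point per library in the 4 genotypes (horizontal axis), with the black bar giving mean ± SD of 3 pools. In the Rps6 WT groups at the left of each panel, the Trp53 null libraries lie entirely above the Trp53 WT libraries for the first pair of transcripts and entirely below them for the other pair, for which ENSMUST00000108658.9 falls from 475 to 499 CPM to 109 to 114 CPM in RPF.

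The other 3 transcripts called in both kinds all rose. The first went from 1.50, 0.999 and 0.634 CPM to 2.47, 3.70 and 3.73 CPM in RNA, from 17 to 34 counts a library to 52 to 62. Its rise of 1.65 ± 0.283 in RNA and 1.30 ± 0.203 in RPF was the steepest of the 7 in RNA, with the widest error (edgeR adjusted p 0.027 and 0.00216). The second rose by 0.82 ± 0.137 in RNA, from 7.39 to 10.4 CPM in Trp53 WT to 14.9 to 18.0 CPM in Trp53 null, and by 0.54 ± 0.106 in RPF (edgeR adjusted p 0.0214 and 0.043). The third moved least, from 47.2 to 52.4 CPM to 64.0 to 67.8 CPM in RNA, a rise of 0.43 ± 0.0745, with 0.36 ± 0.0621 in RPF (edgeR adjusted p 0.0313 and 0.00891).

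Calls in RNA alone fell into 5 transcripts with footprints and 5 without. Of the 5 with footprints, 4 fell and 1 rose in RNA, and their RPF values carried the sign of the RNA change without passing the test. The deepest of these falls was -1.004 ± 0.157 in RNA against -0.70 ± 0.143 in RPF, where the adjusted p was 0.0532. Another transcript went from 47.1 to 50.1 CPM to 33.6 to 35.9 CPM in RNA, a fall of 0.49 ± 0.0576, while its RPF value was -0.18 ± 0.136. The other two falls were of 0.33 ± 0.0472 and 0.27 ± 0.0444 in RNA, beside RPF values of -0.16 ± 0.0757 and -0.24 ± 0.137. The single rise was 0.54 ± 0.0815 in RNA, from 14.4 to 15.4 CPM to 21.1 to 22.1 CPM, beside 0.12 ± 0.0981 in RPF.

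The 2 transcripts called in RPF alone had RNA values of like size. One rose in RPF by 0.62 ± 0.125, from 8.58 to 10.7 CPM to 13.3 to 15.7 CPM, and its RNA value was 0.62 ± 0.146 with an adjusted p of 0.118. The other fell in RPF by 0.25 ± 0.0454, from 158 to 168 CPM to 134 to 137 CPM, and its RNA value was -0.29 ± 0.0606 with an adjusted p of 0.0976. A call in one kind and not in the other is no evidence of a difference between the kinds, which was tested directly.

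That test compared the RPF change with the RNA change, which is a change in translational efficiency (TE), the footprints per unit of RNA. In Rps6 WT limbs, 0 of 14080 transcripts (0%) were called for a change in TE by edgeR, and 731 had an unadjusted p under 0.05. The 14080 include rows with 0 footprints in every RPF library, which could not be called, while 12147 were tested in RPF. The smallest adjusted p was 0.914, and the DESeq2 Wald test also called 0. Over the 14 called transcripts tested in both kinds, the TE difference lay between -0.42 and 0.40 on the log2 scale, with a median of 0.01, and 2 of them had an unadjusted p under 0.05. The highest TE difference, 0.40 ± 0.224, was that of ENSMUST00000043598.13, with a 95% confidence interval from -0.06 to 0.86. For ENSMUST00000108658.9 it was 0.09 ± 0.136, with an interval from -0.19 to 0.37. In Rps6 het limbs the same test of TE called 23 transcripts (0.163%), of which 22 were higher (0.156%) and 1 was lower (0.0071%) in Trp53 null, and the difference between the backgrounds was called for 10 (0.071%). Over all transcripts tested in Rps6 WT the interval lay within 1.5-fold for 9411 (66.8%), and for the others it reached past 1.5-fold at this depth and number of pools. The others include rows without footprints, whose intervals hold no information on TE.

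The 5 transcripts called in RNA without footprints had 0 counts in all 12 RPF libraries, so their change could be followed in RNA alone. RPF counts cover coding sequences and RNA counts whole transcripts. Whether rows without footprints hold an annotated coding sequence was not tested, so their 0 is no measure of ribosome binding. The largest rise of all was among them. It went from 2.04, 2.35 and 2.20 CPM in the Trp53 WT pools, with 46 to 59 counts a library, to 37.7, 29.3 and 35.4 CPM in the Trp53 null pools, with 412 to 810 counts. The rise was 3.96 ± 0.354 on the log2 scale, 15.6-fold, with an edgeR adjusted p of 5.13e-05. The other two that rose did so by 0.89 ± 0.142 and 0.89 ± 0.161. One of them went from 2.40 to 2.88 CPM to 4.81 to 4.98 CPM, and the other from 3516 to 5535 CPM to 6361 to 9461 CPM.

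Of the pair that fell without footprints, one went from 4.91, 4.00 and 4.74 CPM to 1.95, 2.21 and 1.75 CPM, a fall of 1.22 ± 0.201 (edgeR adjusted p 0.0214). The other had 61, 46 and 22 counts in the Trp53 WT pools and 0, 2 and 1 counts in the Trp53 null pools. Over the group its level in Trp53 null was 3.02% of that in Trp53 WT, with an exact 95% interval of 0.615% to 9.03% that covers counting error only. Its edgeR adjusted p was 0.0108. Without that transcript, the RNA falls ran from -2.24 to -0.27 with a median of -1.004 over 7 transcripts, and 7 of the remaining 16 calls exceeded 1 in absolute log2 fold change. The RNA rises ran from 0.43 to 3.96 with a median of 0.89.

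Of the 5426 rows without footprints, 1150 were tested in RNA, and 5 of these were called, against 12 of the 13261 tested rows with footprints. The median log2 fold change of the 1150 was 0.12, and 750 of them (65.2%) were higher in Trp53 null. The rows with footprints had a median of -0.0017 and 49.4% higher. Of the rows without footprints, 184 were higher and 19 lower at an unadjusted p under 0.05, against 984 higher and 940 lower of the rows with footprints. The same rows also differed between Rps6 het and Rps6 WT limbs at constant Trp53, in comparisons that share libraries with this one. Those comparisons also differ in Cre. From Rps6 WT to Rps6 het the median log2 fold change of rows without footprints was 0.15 in Trp53 WT, with 64.1% higher. There 108 of the 1150 were called higher and 38 lower, against 1784 higher and 1650 lower of the 13261 with footprints. In Trp53 null their median was -0.10, with 34.4% higher and 0 called by edgeR in either direction. Of the rows with footprints, 3 were called higher and 7 lower there. At an unadjusted p under 0.05, 16 rows without footprints were higher and 84 lower, against 810 higher and 715 lower with footprints. Rows without footprints took 3.83% to 5.25% of the RNA counts of the Trp53 WT libraries and 5.56% to 7.24% in Trp53 null. The means were 4.56% ± 0.715 and 6.35% ± 0.844 (SD, n = 3), a difference of 1.79 percentage points. The groups did not overlap, with a two-sided exact permutation p of 0.1, the smallest that 3 against 3 allows.

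The difference in share stood at 0.967 points without the most abundant such row and at 0.234 points without the 10 most abundant. In Rps6 het limbs the shares overlapped, 4.89% to 5.25% in Trp53 WT and 4.55% to 6.24% in Trp53 null (exact permutation p 0.9), and the median change of these rows was -0.08. Of the 220 transcripts called higher in the fit of the 6 Rps6 WT libraries alone, 83 (37.7%) had no footprints, against 3 of the 31 called lower (9.68%). In the fit over 4 genotypes, 1150 of the 14411 transcripts tested had no footprints. The part of these rows in the RNA comparison was not tested. Without them, in a fit added after their share was seen, edgeR called 13 transcripts in RNA, 7 higher and 6 lower, among them the 12 of the 17 that had footprints.

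**Figure D3:**
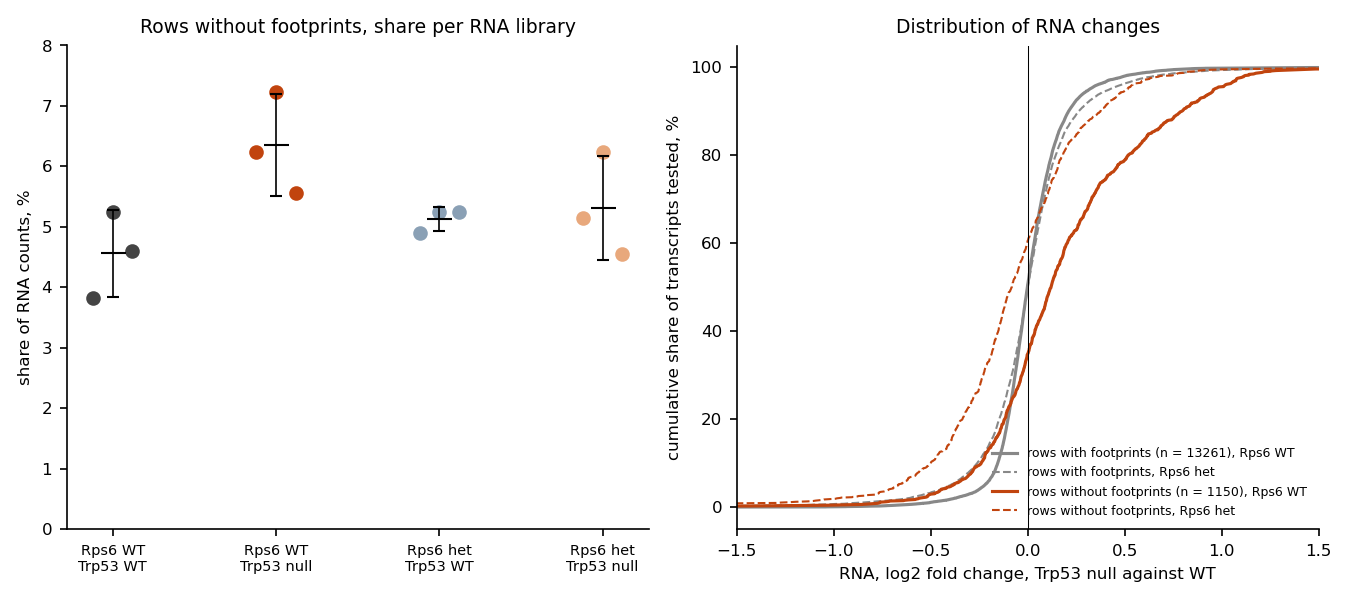
Left, share of RNA counts (%) on rows with 0 footprints in every RPF library, one point per RNA library and mean ± SD per genotype. Right, cumulative share (%) of tested transcripts by RNA log2 fold change of Trp53 null over Trp53 WT, for rows with (grey) and without (orange) footprints, in Rps6 WT (solid) and Rps6 het (dashed): above 0 the solid orange line lies to the right of the grey lines, with 65.2% of its rows there, and the dashed orange line has 39.5% above 0.

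The same loss of Trp53 was measured in Rps6 het limbs, in libraries that share none with those above. There 1918 transcripts were called in RNA (13.3%) and 1834 in RPF (15.1%). Of the 17 transcripts called in RNA with Rps6 intact, 16 had the same sign in Rps6 het and 10 were called in the same direction, against backgrounds of 6.21% called higher and 7.1% called lower. The 10 were 4 of the 9 that rose and 6 of the 8 that fell. Of the 9 called in RPF, 7 had the same sign and 6 were called in the same direction, 3 of 6 that rose and 3 of 3 that fell, with 6.95% called higher and 8.15% called lower among all tested. None of the 17 and none of the 9 was called in the opposite direction. The share of all transcripts with the same sign in both backgrounds is not given here. Of the 220 transcripts called higher with the 6 Rps6 WT libraries alone, 65 had the same sign in Rps6 het, 8 were called in the same direction and 10 in the opposite one. Of the 31 called lower in that fit, 17 had the same sign, 9 were called in the same direction and 2 in the opposite one.

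The difference of the Trp53 change between Rps6 WT and Rps6 het was itself tested in the same fit. It was called for 9 of the 17 RNA transcripts, with 9.55% of all transcripts called, and for 5 of the 9 RPF transcripts, with 7.06% of all called. The 17 and the 9 were chosen by their change in Rps6 WT, which enters this difference. Their shares therefore cannot be weighed against those over all transcripts. ENSMUST00000108658.9 fell further in Rps6 het, with changes of -2.98 ± 0.126 in RNA and -2.45 ± 0.04 in RPF. Its RNA there was at 168, 123 and 160 CPM in Trp53 WT and at 21.1, 20.6 and 15.8 CPM in Trp53 null. The Trp53 WT libraries were thus higher than with Rps6 intact, by 0.53 ± 0.11 in RNA (edgeR adjusted p 0.00265) and 0.24 ± 0.0356 in RPF (edgeR adjusted p 1.29e-05). In Trp53 null the Rps6 het and Rps6 WT libraries differed by -0.21 ± 0.14 in RNA (adjusted p 0.59) and -0.07 ± 0.0425 in RPF (adjusted p 0.581), neither of which passed the test.

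ENSMUST00000043598.13 rose in Rps6 het by 0.75 ± 0.139 in RNA (edgeR adjusted p 0.00207) and 0.72 ± 0.173 in RPF (edgeR adjusted p 0.00503). The RPF rise was smaller there than with Rps6 intact, by 0.84 ± 0.24 (edgeR adjusted p 0.0326), while the RNA difference of 0.41 ± 0.2 did not pass (adjusted p 0.205). For ENSMUST00000102657.9 the changes in Rps6 het were 0.56 ± 0.0973 in RNA and 0.74 ± 0.0761 in RPF. Their differences from Rps6 WT had 95% confidence intervals of -0.12 to 0.47 in RNA and -0.35 to 0.08 in RPF. For ENSMUST00000038211.12 the changes were -0.82 ± 0.144 and -1.10 ± 0.18, with intervals of the difference from -0.80 to 0.07 in RNA and from -0.61 to 0.39 in RPF.

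Among the other called transcripts the widest gap between the backgrounds was that of the one at 47.1 to 50.1 CPM of RNA. It fell by 0.49 ± 0.0576 with Rps6 intact and by 3.54 ± 0.0562 in Rps6 het, a difference of 3.05 ± 0.0791 (edgeR adjusted p 9.08e-13). In RPF the same transcript was at -0.18 ± 0.136 with Rps6 intact and fell by 3.67 ± 0.108 in Rps6 het. The transcript with the largest RNA rise rose in Rps6 het as well, by 2.59 ± 0.326, and the difference of 1.38 ± 0.52 did not pass (adjusted p 0.103). The steep riser of 1.65 was at 0.23 ± 0.268 in Rps6 het, and there the difference of 1.42 ± 0.395 passed (edgeR adjusted p 0.0345). Of the 5 transcripts without footprints, 3 were called in the same direction in Rps6 het. Among all 1150 tested rows without footprints, 14 were called higher and 29 lower there.

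**Figure D4:**
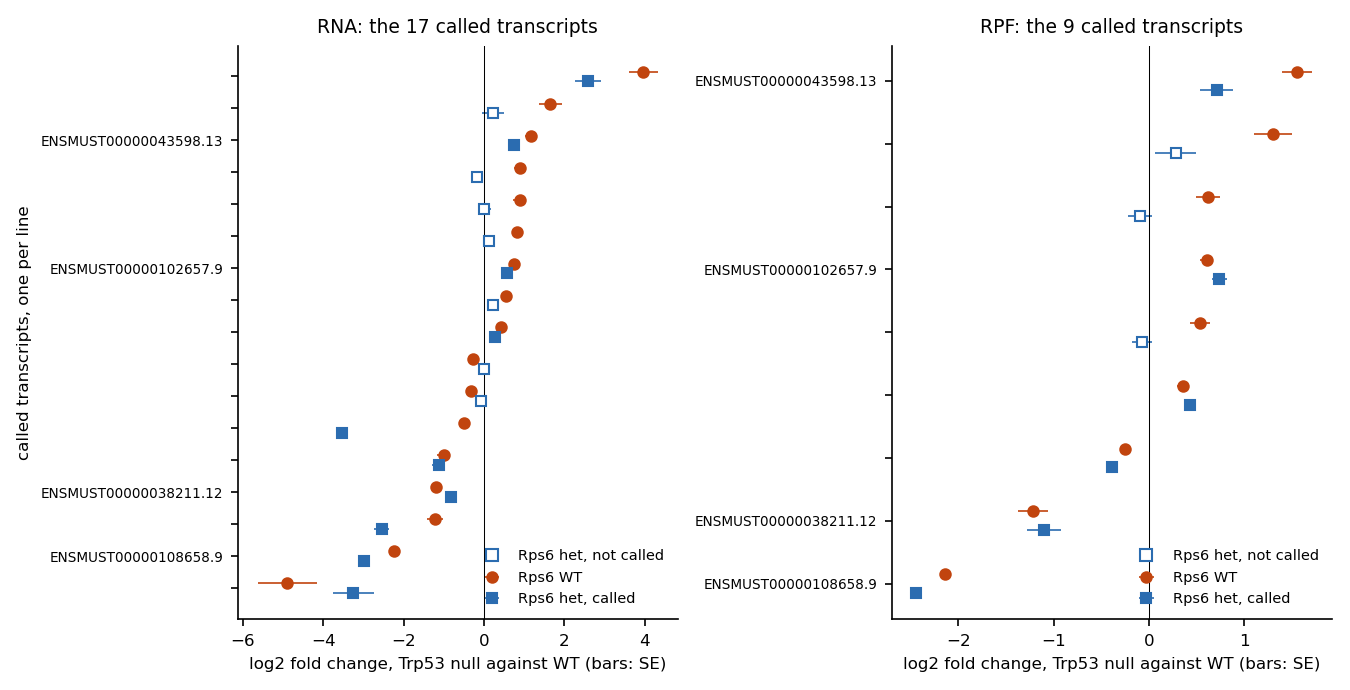
Log2 fold change of Trp53 null over Trp53 WT (horizontal axis, bars are SE) of the 17 transcripts called in RNA (left) and the 9 called in RPF (right) with Rps6 intact, one transcript per line, with circles for Rps6 WT and squares for Rps6 het (filled where called there). The squares are filled for 4 of 9 rises and 6 of 8 falls in RNA and for 3 of 6 rises and 3 of 3 falls in RPF; the lowest circle at left is a fitted value from 3 counts in Trp53 null and is no measure of size.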

How the data were processed

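The values deposited by the authors are raw counts of reads, whole numbers for 21960 transcripts in 24 libraries, taken over coding sequences for RPF and over whole transcripts for RNA, as the table's name has it. The submitters' processing notes name Bowtie2, UMI-tools, GRCm38 and mm10. Their versions and settings, and whether counts are of unique molecules, are not given in the sources used here, so shared or overlapping transcripts remain uncertain.

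Counts were tested with edgeR 4.0.16 (limma 3.58.1) in R 4.3.3 by the quasi-likelihood F test, with filterByExpr (minimum count 10, minimum total 15) and TMM scaling, on all 4 genotypes, RNA and RPF apart. TE was tested over 24 libraries. P-values were adjusted by Benjamini-Hochberg over all transcripts tested, at a threshold of 0.05. CPM are on TMM-scaled totals, and principal components used a prior count of 2. The steps were run on simulated data with the same spread for every transcript and no link between RNA and RPF of a pool. RNA and RPF of the real pools are linked, so the simulation is no support for the calls made here. Alternatives were DESeq2 1.42.0 (size factors, Wald test), no filter, only the Rps6 WT libraries, each pool left out, and blocks.

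Groups come from sample titles, and the last number of a column name was read as the replicate. The transcripts given by ID are the 2 per direction with the smallest RNA or RPF p-value. Comparisons and lists were chosen with earlier results of these data known, and the planned gene lists were not used here because IDs matched no names. Replicates differed by more than sampling noise, with chi-square per degree of freedom of 4.35 to 8.05 in RNA and 1.81 to 3.37 in RPF. RPF and RNA deviations of one pool, paired through the lysate in the labels' protocols, correlated at 0.112 to 0.362 in all 6 Rps6 WT pools.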

Additional observations from a re-analysis of the deposited data

Results flagged for a closer look

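Among the 4 transcripts given by ID, the change with Trp53 loss differed between Rps6 WT and Rps6 het by the test of the difference itself in edgeR for 3 values. The change of ENSMUST00000108658.9 in Rps6 WT less that in Rps6 het was 0.74 ± 0.178 (SE, adjusted p 0.0188) in RNA and 0.31 ± 0.0554 (adjusted p 0.000857) in RPF, so the fall was smaller with Rps6 intact. For ENSMUST00000043598.13 it was 0.84 ± 0.24 (adjusted p 0.0326) in RPF, so the rise was larger with Rps6 intact. Over all called transcripts the difference was called for 9 of 17 in RNA and 5 of 9 in RPF. All these transcripts were chosen by their change in Rps6 WT, which enters the difference. Whether any of them is the transcript of Trp53 itself was not tested.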

How the results depend on the processing

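The 17 RNA calls became 252 without the filter on low counts, 38 with the DESeq2 Wald test, 251 with only the Rps6 WT libraries and 47 with the replicate block, and 6 to 14 with one pool left out. The 9 RPF calls became 48 without the filter and 4 to 11 with one pool left out, and the replicate block left 9. The 0 TE calls became 12 without the filter and 1 with only the Rps6 WT libraries, all lower; the replicate block and the pool block each left 0. The cause was not tested. In edgeR the prior degrees of freedom, which set how far each transcript's spread is drawn to the common one, were 7.65 in RNA over 4 genotypes, 31.25 without the filter and 9.415 with only the Rps6 WT libraries. The 17 RNA and 9 RPF transcripts kept their sign in all 11 alternatives of each kind that refit them. Of the 17, 6 were called in every alternative that gave an adjusted p; DESeq2 gave none for 11. Of the 9, 4 were called in all. Between the Rps6 WT groups, deviations of same-numbered pools correlated at -0.0016 to 0.0923 in RNA and -0.0277 to 0.0462 in RPF. Those of other-numbered pools correlated at -0.129 to 0.053 in RNA and -0.0452 to 0.057 in RPF. The Rps6 het groups were not compared in this way. The same-numbered values were small, and the block is given here only. Transcripts with few footprints are limited by depth, as 3 counts equal up to 0.336 CPM.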
